A study of Saccharomyces cerevisiae with 3 samples.

Results

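Deletion strains of 54 Saccharomyces cerevisiae genes of meiosis and spore formation were followed through a pooled screen for genetic interactions of CIN8, which encodes a kinesin that pushes the poles of the mitotic spindle apart. The genes were chosen as a list of names that cover meiotic recombination, synapsis, meiotic regulators and spore formation, and every probe annotated with one of them was taken, with the probes of HFM1 counted under its synonym MER3. Probes were found for 52 of the 54 genes, 226 in all, among 5325 genes named on the arrays. MND1 and IME4 were not analysed here. A value on all 3 arrays was present for 51 of the 52, against 5204 strains in the whole table, and REC102 was measured on 2 arrays.

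The starting pool held 5896 heterozygous diploid deletion strains, each marked by 2 short DNA tags, into which a URA3 cassette that replaces CIN8 was introduced. After sporulation, the haploid double mutants, which lack CIN8 and carry URA3, grew on medium without uracil, and the haploid single mutants, which keep CIN8, grew on medium with 5-fluoroorotic acid (5-FOA), a compound that kills cells expressing URA3. Both were harvested after 2 days at 30 °C, and the experiments numbered 1, 2 and 3 used 0.1, 0.15 and 0.2% 5-FOA. On each array, tags of the double-mutant pool carried Cy3 and those of the single-mutant pool Cy5. The labels describe amplified genomic DNA, although the molecule field reads total RNA, and do not give the step from which the experiments were kept separate. The p-values therefore speak only of the spread among 3 arrays, part or all of which may be technical, and precision is limited by that number. Spot intensities were not used here.

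Each value is the deposited log2 ratio of the 2 pools after centring on the median of its array and tag set, averaged over the tags of a strain. Which pool is on top of the ratio is not given in the sources used here. The strain of KIP1, the other kinesin of the CIN8 family, stood at 4.99 ± 0.50. Those of the uracil synthesis genes URA1 and URA5 stood at 4.87 ± 0.50 and 5.14 ± 0.37, whereas the strain of CIN8 itself stood at -2.23 ± 0.26 (SD, n = 3 each). Uracil auxotrophs and the CIN8 strain would both be short in the double-mutant pool by the design, yet lay on opposite sides of 0. Positive and negative below are thus the signs as deposited, without a pool attached to them. A strain was called when limma's test of its mean against 0 gave a Benjamini-Hochberg adjusted p under 0.05 over all strains.

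Meiosis turns a diploid yeast cell into 4 haploid spores when nitrogen and a fermentable carbon source run out. The transcription factor Ime1 starts the programme, Spo11 and its partners cut the chromosomes, the strand exchange protein Dmc1 repairs the cuts on the homologous chromosome, and the synaptonemal complex holds the homologues together. The factor Ndt80 then turns on the genes of the divisions and of the prospore membrane and spore wall. Most of these genes are not transcribed in cells that divide by mitosis, and the strains of the pool passed through sporulation with 1 intact copy of each gene. SKI8, SUM1, UME6, RIM11, RIM15 and SPO14 also act in vegetative cells.

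As a list, the meiosis and sporulation strains stayed close to 0. Their median was 0.0048, against -0.10 for all strains tested, and 41 of 51 (80.4%) lay within 0.5 of 0 on the log2 scale, against 51.1% of all strains. Means ran from -0.79 to 1.73 among the 51, against -6.31 to 5.63 among all strains, and the SD across strains was 0.48 against 0.98. Limma called 8 of 51 (15.7%), with 33.6% called among all strains. Of these, 6 were positive (11.8%, against 16.2% of all strains) and 2 negative (3.92%, against 17.4%). Without centring, 5 were called positive and 8 negative, or 38.5% positive in place of 75.0%. The split of all strains without centring was not counted, so this shift cannot be read as particular to the list. At 2-fold or more, 2 of 51 were called (3.92%, against 14.8%), 2 on the positive side (against 5.34% of all strains) and 0 on the negative side (against 9.47%). The table of all strains also holds strains of essential genes, which were not separated here. No test of the list against the other strains was made.

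**Figure D1:**
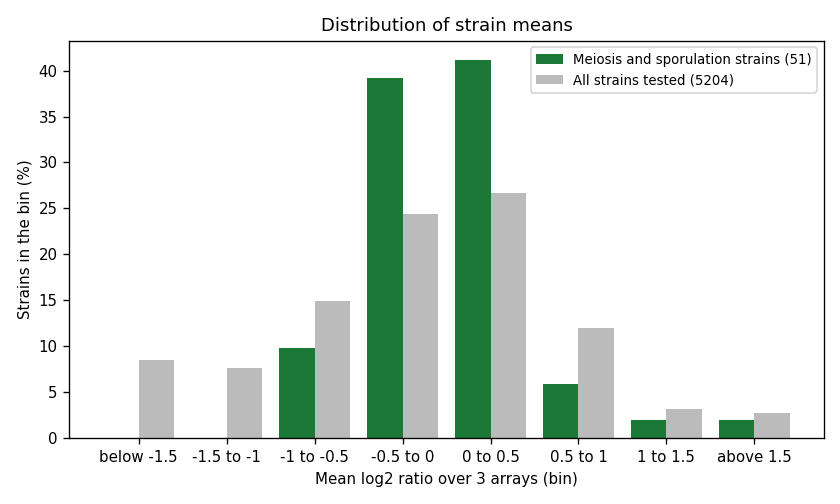
Share of strains (%) in bins of the mean log2 ratio over 3 arrays, for the 51 meiosis and sporulation strains (green) and for all 5204 strains tested (grey). Of the 51, 20 fell between -0.5 and 0 and 21 between 0 and 0.5, and none fell below -1.

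For the 43 strains that were not called, the confidence interval covers the spread of the tag average over arrays and not the gap between tags. The 95% confidence interval of the mean lay inside a 2-fold change in either direction for 37 of the 43, against 62.6% of the strains not called in the whole table. NDT80 and SPO74 are among the 37, although their tags were called in opposite directions. With any 1 of the 3 arrays left out, 0 members were called by limma. An unadjusted p under 0.05 was found for 10 of 51 without experiment 1, 8 of 52 without experiment 2 and 7 of 51 without experiment 3, against 16 of 51 with all arrays, where 49.8% of all strains had one. With the 5-FOA percentage as a covariate, SPO22 alone was called. Shares of all strains were not counted with an array left out or with the covariate, so these losses cannot be set against the whole table.

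Among the 51 strains tested, the 2 with means farthest from 0 were those of synapsis genes. SPO22, also known as ZIP4, encodes a scaffold of synapsis initiation, and its strain had log2 ratios of 1.66, 1.78 and 1.77 in experiments 1, 2 and 3. All 3 arrays lay close together, and the mean was 1.73 ± 0.06, or 3.33-fold (adjusted p = 0.0094). ZIP2 encodes a protein that acts in one complex with Spo22 and Spo16, and its strain had 1.41, 1.58 and 1.11. The mean was 1.37 ± 0.23, or 2.58-fold (adjusted p = 0.0142). Both tags of each strain were called, at 1.72 and 1.75 for SPO22 and at 1.37 and 1.36 for ZIP2 in tag sets A and B.

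The third gene of that complex gave another value. SPO16 had -0.44, -0.20 and -0.19, with a mean of -0.27 ± 0.14 and tags at -0.21 and -0.34, and was not called (adjusted p = 0.123). Its 3 values lay below 0 on arrays where SPO22 and ZIP2 lay above 1. The difference between the strains was not tested. ZIP1, the central element of the synaptonemal complex, had 0.50, 0.14 and 0.31, a mean of 0.32 ± 0.18 (adjusted p = 0.115). MSH4 and MSH5 form a dimer that stabilises crossover intermediates, and their strains had means of -0.08 ± 0.16 and 0.04 ± 0.08. MER3, a DNA helicase of the crossover pathway, had -0.86, -0.30 and 0.19, and these span 0. NDJ1, which tethers meiotic telomeres, had a mean of 0.40 ± 0.11 (adjusted p = 0.0535), and MER1, a splicing activator of meiotic transcripts, -0.21 ± 0.03 (adjusted p = 0.140). In tag sets A and B, NDJ1 stood at 0.19 (not called) and 0.62 (called), and MER1 at -0.49 (called) and 0.07 (not called). Of the 9 strains in this group, 2 were called (22.2%, against 33.6% of all strains), and the median was 0.038.

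**Figure D2:**
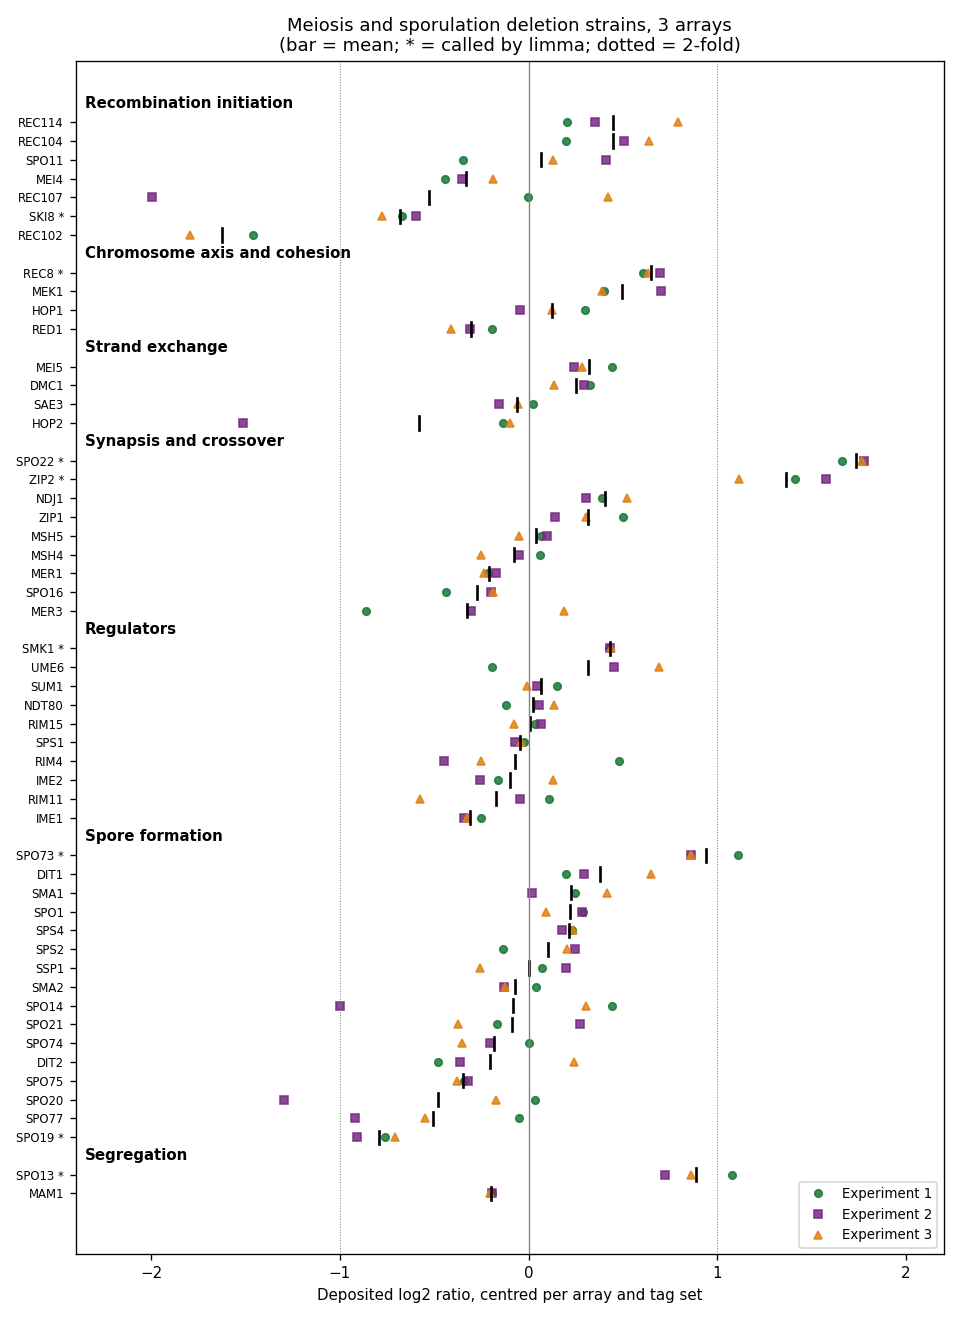
Centred log2 ratio of the 52 strains with probes, by role, in experiment 1 (circles), experiment 2 (squares) and experiment 3 (triangles). Black bars are means over the arrays with a value, asterisks mark the 8 strains called by limma, dotted lines mark a 2-fold change, and REC102 has 2 arrays. SPO22 and ZIP2 stand above 1 on every array, and the squares of REC107, HOP2, SPO14 and SPO20 stand apart to the left.

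Chromosome axis genes included 1 called strain of 4 (25.0%, against 33.6% of all strains). REC8 encodes the meiotic kleisin, the cohesin subunit that replaces the mitotic one, and its strain had 0.61, 0.70 and 0.63. The mean was 0.65 ± 0.05, or 1.57-fold (adjusted p = 0.0207), with both tags called at 0.72 and 0.58. MEK1, a kinase that steers repair towards the homologue, had 0.40, 0.70 and 0.39, a mean of 0.50 ± 0.18 just outside the threshold (adjusted p = 0.051). HOP1 and RED1, structural proteins of the axis, stood at 0.13 ± 0.17 and -0.30 ± 0.11. The arrays of HOP1 lay on both sides of 0, and those of RED1 all lay below 0.

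Among recombination initiation genes, SKI8 was the 1 strain called of 6 tested (16.7%, against 33.6% of all strains). The Ski8 protein is a subunit of the Ski complex of cytoplasmic mRNA decay and, in meiosis, a partner of Spo11. Its strain had -0.67, -0.60 and -0.77, with a mean of -0.68 ± 0.09 (adjusted p = 0.0210) and tags at -0.55 and -0.82, both called negative. SPO11, the enzyme that makes the double-strand breaks, had -0.35, 0.41 and 0.13, on both sides of 0 (mean 0.06 ± 0.38, adjusted p = 0.797). REC104 and REC114, accessory proteins of break formation, were above 0 on all arrays, at 0.45 ± 0.23 (adjusted p = 0.0777) and 0.45 ± 0.31 (adjusted p = 0.109). MEI4, which acts with Rec114, was below 0 on all arrays at -0.33 ± 0.13 (adjusted p = 0.0849). REC102, which acts with Rec104 on Spo11, had -1.46 in experiment 1 and -1.79 in experiment 3 and no value in experiment 2. Each tag of REC102 was missing on at least 1 array, at -1.25 in tag set A (experiment 1 alone) and at -1.67 and -1.79 in tag set B. It had the lowest mean of the list, over 2 arrays, and when strains with 2 arrays were admitted to the test it was called negative (mean -1.63, adjusted p = 0.0281).

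None of the 4 strand exchange strains was called by limma (against 33.6% of all strains). An unadjusted p under 0.05 was found for 1 of the 4, against 49.8% of all strains. DMC1, the meiotic recombinase, had 0.33, 0.29 and 0.13 (mean 0.25 ± 0.10, adjusted p = 0.124), and MEI5, a loader of Dmc1, had 0.44, 0.24 and 0.28 (mean 0.32 ± 0.11, adjusted p = 0.0803). All arrays of these strains lay above 0. SAE3, the partner of Mei5, stood at -0.06 ± 0.09. HOP2, which helps homologues to pair, had -0.13, -1.51 and -0.10, and 1 array set its mean of -0.58 ± 0.81 (adjusted p = 0.275).

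The 2 segregation genes gave different values. SPO13 is a regulator of the first meiotic division that keeps sister centromeres together, and its strain had 1.08, 0.72 and 0.86. The mean was 0.89 ± 0.18, or 1.85-fold (adjusted p = 0.0198), with both tags called at 0.94 and 0.83. MAM1 encodes a meiotic subunit of monopolin, which clamps sister kinetochores together. Its strain had -0.19, -0.20 and -0.20, a mean of -0.20 ± 0.0064 that was not called (adjusted p = 0.150). Each MAM1 tag varied more over the arrays than this average, with means of -0.27 ± 0.23 (set A) and -0.12 ± 0.23 (set B). The arrays of SPO13 and MAM1 did not overlap. The strain of ARD1, the gene next to SPO13, had a mean of 4.24 ± 0.32 with tags at 4.13 and 4.35, and the strain of MIP6, on the other side of SPO13, had -0.44 ± 0.24. The part of the neighbouring gene in the value of SPO13 was not tested.

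Regulators lay close to 0, all 10 of them within 0.5, with a median of -0.018 and 1 call (10.0%, against 33.6% of all strains). SMK1, a mitogen-activated protein kinase of spore wall assembly, had 0.43 on each array (mean 0.43, SD 0.0036, adjusted p = 0.0371). Each SMK1 tag varied more over the arrays than this average, at 0.54 ± 0.10 (called) and 0.32 ± 0.11 (not called). The fold change of SMK1 was 1.35. The call was lost without centring (0.27, adjusted p = 0.0881) and with the tag value nearer 0 (0.32, adjusted p = 0.0749). IME1, the master activator of meiosis, had -0.25, -0.34 and -0.33 (adjusted p = 0.0722), and its tags gave -0.82, which was called, and 0.20. IME2, a kinase that Ime1 induces, stood at -0.10 ± 0.20. RIM4, an RNA-binding protein of meiotic translation, had 0.48, -0.45 and -0.25, on both sides of 0, and SPS1, a kinase of spore formation, stood at -0.04 ± 0.03. NDT80 stood at 0.024 ± 0.13 from tags that went opposite ways, as given below.

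The regulators that also act in vegetative cells were not called. UME6 encodes the DNA-binding repressor that keeps early meiotic genes off in growing cells, and its strain had -0.19, 0.45 and 0.69 (mean 0.32 ± 0.46, adjusted p = 0.311), with arrays on both sides of 0. SUM1, the repressor of middle meiotic genes, had 0.15, 0.05 and -0.01 (mean 0.06 ± 0.08, adjusted p = 0.608). RIM15, a kinase of nutrient limitation, had 0.03, 0.07 and -0.08 (mean 0.0083 ± 0.076, adjusted p = 0.945). RIM11, a kinase of the glycogen synthase kinase family that phosphorylates Ime1 and Ume6, had 0.11, -0.05 and -0.57 (mean -0.17 ± 0.36, adjusted p = 0.488). The 95% confidence intervals ran from -0.33 to 0.96 for UME6 and from -0.70 to 0.36 for RIM11.

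Spore formation genes had 2 called strains of 16 (12.5%, against 33.6% of all strains), in opposite directions, and a median of -0.078. SPO73, needed for the shape of the prospore membrane, had 1.11, 0.86 and 0.86. The mean was 0.94 ± 0.14, or 1.92-fold (adjusted p = 0.0165), and both tags were called at 1.05 and 0.84. With the tag value nearer 0 it stood at 0.80 and was not called (adjusted p = 0.0625). SPO19, which encodes a cell surface protein of the prospore membrane, had -0.76, -0.91 and -0.71, with a mean of -0.79 ± 0.10 (adjusted p = 0.0180). The call of SPO19 rested on tag set B (-1.37), while tag set A gave -0.22 and was not called. SPO75, a membrane protein of spore formation, was below 0 on all arrays at -0.35 ± 0.03 (adjusted p = 0.0553). That value rested on tag set B as well (-0.67, called), while tag set A gave -0.03 and was not called.

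The other spore formation strains were not called. DIT1 and DIT2 are neighbouring genes that make the dityrosine of the spore wall. DIT1 had 0.20, 0.29 and 0.65, and DIT2 had -0.48, -0.36 and 0.24 from tag set A alone, so that DIT1 lay above 0 on all arrays and DIT2 on both sides. SPS1 and SPS2, also neighbours, stood at -0.04 ± 0.03 and 0.10 ± 0.21. SPO21, of the meiotic spindle pole body, stood at -0.09 ± 0.33, SSP1, of the leading edge of the prospore membrane, at 0.0048 ± 0.24, and SMA1 and SMA2, of prospore membrane growth, at 0.23 ± 0.20 and -0.07 ± 0.10. SPO1, a phospholipase-like protein, had a mean of 0.22 ± 0.11 and SPS4 a mean of 0.21 ± 0.03, both with all arrays above 0 (adjusted p = 0.158 and 0.133).

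Each strain was read through a pair of tags of unlike sequence, which share their pools and arrays. The calls of both tags had the same sign in 6 of the 48 strains measured by both on all arrays (12.5%, against 16.9% of all strains): SPO22, ZIP2, SPO73, SPO13 and REC8, 5 strains on the positive side (where all strains had 11.2%), and SKI8, 1 strain on the negative side (where all strains had 5.71%). The median gap between tag means was 0.26, against 0.33 for all strains. Tags had means of opposite sign in 17 of 48 strains (35.4%), against 26.9% of all strains. SUM1, RIM15, SAE3, MSH4, MSH5, MER1 and SPS1 were among them. A mean near 0 or a small SD over arrays therefore does not show that the tags were alike. Over the 48 strains the tags correlated with a Pearson's r of 0.39 and a Spearman's rho of 0.36, against 0.48 and 0.56 over all strains. These are given as a description over strains that share their arrays.

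NDT80 and SPO74 had tags that were called in opposite directions, 2 of 48 strains against 1.47% of all strains. NDT80 had -0.87, -0.66 and -0.45 in tag set A, against 0.63, 0.77 and 0.73 in tag set B. SPO74, of the outer plaque of the meiotic spindle pole body, had 0.90, 0.64 and 0.58 in tag set A, against -0.89, -1.05 and -1.28 in tag set B. In both strains the tags did not overlap on any array, and their averages, 0.024 ± 0.13 for NDT80 and -0.18 ± 0.18 for SPO74, describe neither tag. SPO77, which acts in the closure of the prospore membrane, had 0.54, 0.25 and 0.44 in tag set A, not called, and -0.64, -2.08 and -1.54 in tag set B, called negative.

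**Figure D3:**
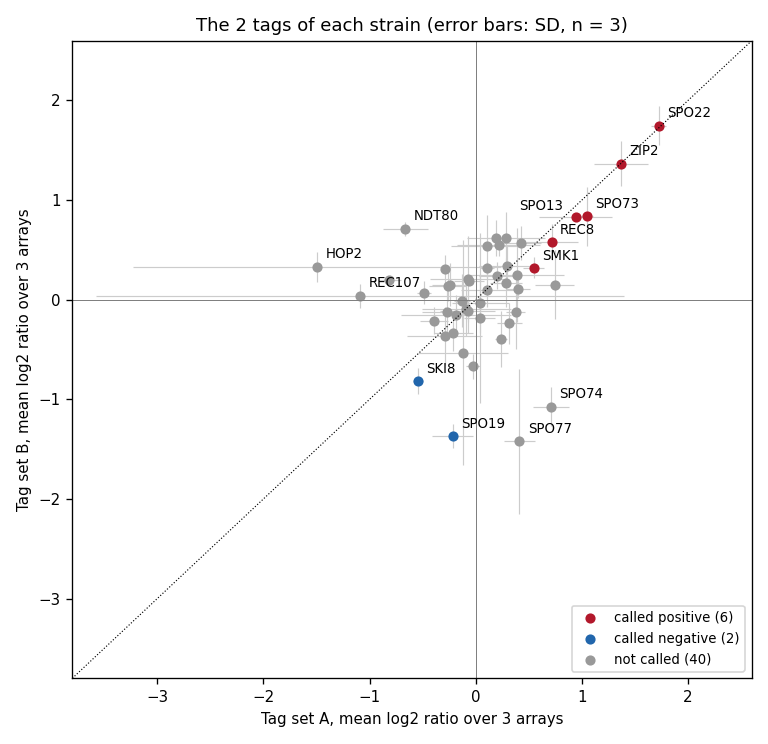
Mean log2 ratio in tag set B against tag set A for the 48 strains in which each tag had 3 arrays, with error bars of 1 SD (n = 3) and a dotted line of equality. The 5 positive strains called by both tags lie near the line, NDT80 and SPO74 lie in the quadrants of opposite sign, and HOP2 and REC107 have wide horizontal bars.

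Values as low as -2 occurred in these strains in experiment 2 alone. Of the tag values at or below -2, 0 of 101 came from experiment 1, 5 of 101 (4.95%) from experiment 2 and 0 of 100 from experiment 3, against 6.71, 8.40 and 7.07% in all strains. REC107, also known as MER2, which acts with Mei4 and Rec114, had -0.16, -3.91 and 0.79 in tag set A, against 0.15, -0.08 and 0.05 in tag set B. HOP2 had -0.44, -3.49 and -0.55 in tag set A, against 0.17, 0.47 and 0.35 in tag set B. In both strains a single tag on a single array was far from all other values.

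SPO14 and SPO20 had a low tag that was measured in experiment 2 alone. SPO14, a phospholipase D of membrane traffic and of the prospore membrane, had -2.17 in tag set A and 0.44, 0.17 and 0.30 in tag set B. SPO20, a SNARE of prospore membrane fusion, had -2.48 in tag set B and 0.03, -0.12 and -0.17 in tag set A. The means of SPO14 (-0.09 ± 0.80) and SPO20 (-0.48 ± 0.72) therefore join different tags on different arrays. The fifth value was that of SPO77, at -2.08. Across the 51 strains the SD was 0.66 in experiment 2, against 0.49 in experiments 1 and 3.

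No trend over the 5-FOA percentage was called in the 51 strains (0%, as in the whole table at 0%), and the smallest adjusted p was 0.978. An unadjusted p under 0.05 was found for 1 of 51, against 5.05% of all strains. It belonged to MER3, with a slope of 1.05 on the log2 scale per 0.1% of 5-FOA. Each percentage was used in 1 experiment, so that percentage and experiment cannot be told apart.

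Further genes of the pathway were set beside these. Of 37 tested strains on a list of other meiosis and sporulation genes, 12 were called (32.4%, against 33.6% of all strains), with a median of 0.041. Of the 12, 8 were positive (21.6% of the list, against 16.2% of all strains) and 4 negative (10.8%, against 17.4%). The calls of both tags had the same sign in 3 of 35 strains (8.57%, against 16.9% of all strains). CSM1 encodes a monopolin subunit that also acts at the nucleolus in vegetative cells, and its strain had 3.24, 2.06 and 1.77 (mean 2.35 ± 0.78, adjusted p = 0.0247). Its tags stood at 2.98 and 1.73 and were not both called. All 3 arrays lay above those of MAM1, its meiotic partner (-0.20), and the difference was not tested. LRS4, the partner of Csm1 in vegetative cells as well, stood at 0.43 ± 0.24 (adjusted p = 0.0881), with tags at -0.89 and 1.75 that were called in opposite directions. SPS100, a spore wall protein, stood at -1.24 ± 0.36 (adjusted p = 0.0234), and PCH2, an ATPase of the meiotic checkpoint that acts on Hop1, at 0.97 ± 0.08 (adjusted p = 0.0140). The lists of members and of other genes were both made with earlier results of these data known.

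Partners of the members that act in vegetative cells were listed as well. SIN3 and RPD3 encode the histone deacetylase complex that Ume6 brings to early meiotic genes. SIN3 had -1.90, -2.63 and -3.14 (mean -2.55 ± 0.62, adjusted p = 0.0165) and RPD3 had -1.38, -1.65 and -1.93 (mean -1.65 ± 0.28, adjusted p = 0.0138). Both lay below every array of UME6, and the difference was not tested. They were the 2 called strains of 10 (20.0%, against 33.6% of all strains), both negative (against 17.4% of all strains). SKI2, SKI3 and SKI7, which act with Ski8 in mRNA decay and were named after their values were seen, stood at -0.15 ± 0.03, 0.22 ± 0.07 and -0.23 ± 0.15 and were not called, against -0.68 for SKI8.

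The Rim101 pathway senses alkaline medium and is needed for full IME1 expression in sporulation. Its genes were listed with earlier results of these data known, so the share below is a description. Of its 8 strains, 6 were called positive (75.0%, against 16.2% of all strains) and 0 negative, with a median of 0.60, and all 6 were under 2-fold. DFG16, a sensor of the pathway, stood at 0.94 ± 0.20 (adjusted p = 0.0200), YGR122W at 0.91 ± 0.11 (adjusted p = 0.0158) and RIM9 at 0.82 ± 0.11 (adjusted p = 0.0175). RIM20, which was not called, stood at -0.11 ± 0.19. IME1 itself stood at -0.31 ± 0.05 and was not called, with tag set A below 0 and tag set B above 0 on all arrays. Both tags were called positive in 3 of the 8 strains (37.5%, against 11.2% of all strains measured by both tags). By limma's test with any 1 array left out, 0 strains of these 3 further lists were called either.

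**Figure D4:**
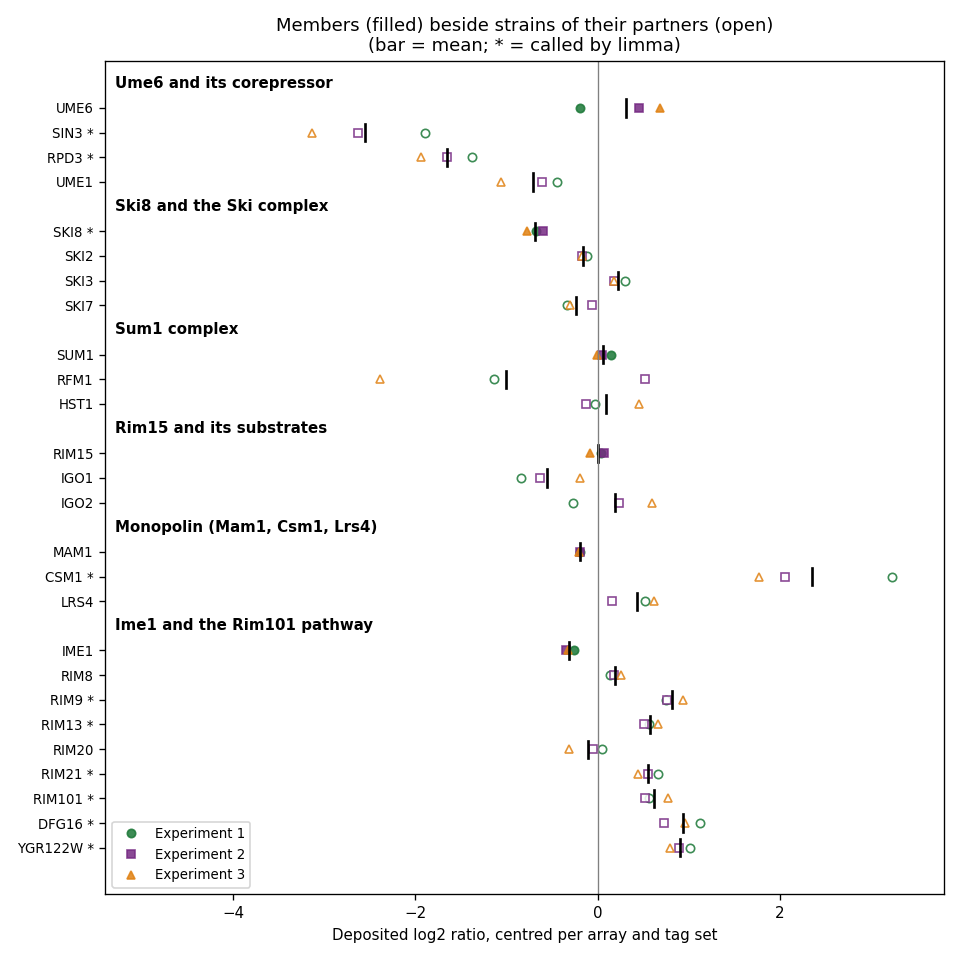
Centred log2 ratio in experiments 1 (circles), 2 (squares) and 3 (triangles) for 6 members (filled) and strains of genes that act with them (open), with bars at the mean and asterisks for strains called by limma. SIN3 and RPD3 lie below UME6, CSM1 lies above MAM1, and the Rim101 pathway strains lie mostly between 0.5 and 1.

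The strains of genes next to the 8 called members were looked up after the calls were known. Of 15 tested neighbours, 2 were called, where 33.6% of all strains were. They were ARD1, beside SPO13, and VAM7, a vacuolar fusion SNARE gene beside SKI8, at -2.27 ± 0.27 with tags at -4.31 and -0.23. Of the neighbours not called, RPL5 (-1.5 ± 1.36) and TAF14 (-0.90 ± 0.70) lay farther below 0 than SPO19 between them (-0.79), and CLG1 (-0.82 ± 0.59) lay farther below 0 than SKI8 beside it (-0.68). The mean of CLG1 rested on tag set B (-1.56), while tag set A gave -0.09. The part of neighbouring genes in the values of SPO19 and SKI8 was not tested. The neighbours of SPO22, which are SER33 and HOP1, stood at 0.39 ± 0.21 and 0.13 ± 0.17, and those of ZIP2, which are RMR1 and PDE1, at 0.39 ± 0.41 and 0.31 ± 0.14. In tag sets A and B, RMR1 had means of -0.03 and 0.81 and PDE1 of 1.12 and -0.51, so that their averages describe neither tag.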

How the data were processed

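Tags of 2 haploid pools were compared on each of 3 arrays. GenePix 5.1 served for image analysis, per the labels' protocols. The authors deposited log2 ratios, 1 per probe and array, and their formula, direction, normalization and filters are not given in the sources used here. Array medians ran from -0.17 to -0.15. A set of 36 values at a ratio of 999999 was treated as placeholders and left out, after the values were seen. Named probes form 2 blocks, in which probes 10971 identifiers apart name the same gene in all 9397 pairs. The blocks were taken to hold the 2 tags of each strain and are named tag sets A and B. Gene names came from the platform annotation (5321 of 5325 genes matched RefSeq assembly R64).

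The median of its array and tag set was subtracted from each value. Repeated spots were averaged first, then the tags of a strain. Means were tested against 0 with limma 3.58.1 in R 4.3.3 (lmFit on an intercept, eBayes, two-sided, Benjamini-Hochberg over 5204 strains), and each tag set was tested alone in the same way. A trend over 5-FOA was fitted with 1 residual degree of freedom. The fit was also run on simulated strains with known shifts, as a check of the code that does not bear on the calls given here. Tables were made in Python 3.11.15 with numpy 2.4.6 and pandas 2.3.3, and plots with matplotlib 3.10.9. The members, role groups and gene lists were chosen with earlier results of these data known. Per-array values were to be given for members called at 2-fold or more, the 5 highest and 5 lowest means, tags called in opposite directions, members active in vegetative cells, neighbouring members and values at the lowest ratio (none among members), and for up to 3 called strains per further list. Values beyond that rule, SMK1, REC102 and the neighbours of called members among them, were chosen after they were seen. No sequences were used here.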

Additional observations from a re-analysis of the deposited data

How the results depend on the processing

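The median of spots and leaving out the lowest ratios kept the counts of members, and the median of the list moved from 0.0048 by more than the typical SD between arrays only without centring (-0.16). Without centring, which shifts arrays by 0.15 to 0.18, 13 members were called, 8 negative, with 4 partner strains called. Tag set A alone gave 4 negative members and 5 partners. Tag set B alone gave 15 members (10 positive, 5 negative, 5 at 2-fold or more). The tag value nearer 0 gave 5 members (1 negative), 3 other meiosis strains and 3 Rim101 strains, and strains with both tags on all arrays gave 4 negative members. The 5-FOA covariate uses up 1 of the 2 residual degrees of freedom, and with it 1 member was called (1 positive, 0 negative, 1 at 2-fold), 2 by both tags, and 0 other meiosis and 0 Rim101 strains. Leaving out experiments 1, 2 or 3 gave 0 calls in every list, on either side, at 2-fold and by both tags. The smallest adjusted p-values among members were then 0.0787, 0.0628 and 0.0770 by limma's test. These runs had fewer arrays, and the cause of the lost calls was not tested. Shares of all strains were not counted under the alternative settings.

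Members that were called kept their sign under every alternative run. Signs turned for members that were not called. Without centring, HOP1 stood at -0.039, NDT80 at -0.14, SUM1 at -0.10, RIM15 at -0.16 and SPS2 at -0.063. In tag set A, NDT80 stood at -0.66, SUM1 at -0.064, RIM15 at -0.29, SPO74 at 0.70 and SPO77 at 0.41, and in tag set B REC107 at 0.039, HOP1 at -0.12, HOP2 at 0.33, SPS1 at 0.15 and SPO14 at 0.30. RIM15 stood at -0.0024 without the lowest ratios, through the array medians. With 1 experiment left out, REC107 ranged from -0.998 to 0.21, NDT80 from -0.032 to 0.097, RIM11 from -0.31 to 0.032, RIM15 from -0.022 to 0.051 and SPO14 from -0.35 to 0.37. Beyond the stated construction, the cause was not tested. Each value already compares the pools within 1 array, and no further pairing was possible because the arrays form 1 group.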
